A study of Mus musculus with 9 samples.

Results

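RNA levels of 8 C-type lectin receptor genes of myeloid cells, Clec4a1, Clec4a2, Clec4a3, Clec4d, Clec4e, Clec4n, Clec7a and Clec12a, were examined in 9 RNA sequencing libraries of 3 groups of mouse cells. These genes are 8 of the 55322 genes in the expression table. They were chosen by their measured levels in these 3 groups and by their shared receptor type, so their levels and differences are a description and nothing is supported with them. CD11b+ B cells and CD11b- B cells were sorted from the bone marrow (BM) of wild-type C57BL/6 mice that had received 5 mg/kg LPS, a component of the outer wall of Gram-negative bacteria, into the peritoneal cavity 48 h earlier. Peritoneal macrophages (PMs) were sorted as CD11b+F4/80+ cells from naive wild-type mice that received no LPS. Each group had 3 libraries. Before the B cells were sorted, the BM was depleted of cells that carried CD3, CD4, CD8, Gr-1, NK1.1 or TER119. The sources used do not state the age or sex of the mice, or whether animals were pooled. The labels do not say that the libraries of a group came from separate animals, but the study draws their FPKM with SD, which its methods keep for biological replicates. The p-values measure the spread between these libraries, and what each library was made from is not stated further. Both B cell groups came from LPS-treated mice, and untreated B cells were not analysed here. Tissue, LPS and cell type differ together between PMs and B cells and cannot be told apart.

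C-type lectin receptors are surface proteins with which macrophages, monocytes, neutrophils and dendritic cells bind sugars and lipids of microbes and material from damaged cells. Mincle (Clec4e), MCL (Clec4d) and Dectin-2 (Clec4n) have no activating motif of their own and signal through the Fc receptor gamma chain, an adaptor encoded by Fcer1g. Dectin-1 (Clec7a) binds beta-glucan of fungal cell walls and carries a tyrosine motif in its own tail. Both routes activate the kinase Syk and then a complex of CARD9, BCL10 and MALT1, which switches on NF-kappaB. Clec4a2 (DCIR) and Clec12a (MICL) instead carry an inhibitory motif that recruits the phosphatases SHP-1 (Ptpn6) and SHP-2 (Ptpn11). Clec4a1 and Clec4a3 are relatives of Clec4a2 that lack this motif.

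Values are FPKM, the reads of a gene scaled to the length of its exons and to the reads on all genes of the library. The authors' FPKM could be turned back into whole reads, which numbered 18014658 to 29208721 per library on all genes in PMs, 32056102 to 34895579 in the CD11b- libraries and 26174718 to 35251215 in the CD11b+ libraries. The sorted groups carried the RNA of their labelled cell types. The summed FPKM of 12 B cell markers was 133 to 255 in PMs, against 13068 to 14914 in the CD11b- libraries and 13115 to 16250 in the CD11b+ libraries. Gata6, a transcription factor of resident peritoneal macrophages, was at 10.5 to 18.5 FPKM in PMs and at most 0.0528 FPKM in a B cell library. Itgam, which encodes CD11b, was at 1.92, 1.31 and 1.51 FPKM in the CD11b+ B cell libraries, at 0.40, 0.251 and 0.869 in the CD11b- libraries and at 251 to 358 in PMs. The CD11b+ B cell libraries also held RNA of myeloid marker genes, in amounts that differed between the 3 libraries, and these values are given with the lectin receptors below. In RNA from whole samples, fewer cells of a type and less RNA per cell cannot be told apart.

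All 8 genes lie on chromosome 6, in 2 clusters separated by 6052820 bp (GRCm38, GENCODE M21). The first cluster spans 368023 bp and holds Clec4a1 (chr6:122921848-122934619, plus strand), Clec4a3 (chr6:122952515-122969875, plus), Clec4a2 (chr6:123106428-123143999, plus), Clec4n (chr6:123229843-123247021, plus), Clec4d (chr6:123262111-123275265, plus) and Clec4e (chr6:123281789-123289870, minus). The second spans 130089 bp and holds Clec12a (chr6:129342691-129365303, plus) and Clec7a (chr6:129461591-129472779, minus). The annotation lists Clec7a as a polymorphic pseudogene and the other 7 as protein-coding. None of the 8 shares exon bases with another gene of the authors' table, so a count that ignored strand would not have moved reads between them and a neighbour. Reads that match several of the related Clec4a genes could have been shared out or dropped in counting, and the sources used do not state how these were treated.

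RefSeq promoter sequences (GRCm38.p6) were at hand for 7 of the 8 genes, all but Clec4n. The 150 bases before the transcription start are shown for the 4 genes with the highest levels in PMs. None of these 4 windows touches an annotated exon. They were searched on both strands for GAGGAA (the core of sites of PU.1, a myeloid and B cell factor), TTGCNNAA (C/EBP), TGANTCA (AP-1) and TATAAA (the TATA box), and capitals mark the matches.
Clec4d, chr6:123261957-123262106, plus strand: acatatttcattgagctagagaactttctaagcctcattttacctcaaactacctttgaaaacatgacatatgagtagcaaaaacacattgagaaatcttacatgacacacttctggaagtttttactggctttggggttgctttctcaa
Clec4a3, chr6:122952365-122952514, plus strand: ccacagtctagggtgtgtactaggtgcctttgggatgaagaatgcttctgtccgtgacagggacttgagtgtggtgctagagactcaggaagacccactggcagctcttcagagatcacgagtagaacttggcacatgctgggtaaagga
Clec7a, chr6:129472780-129472929, minus strand: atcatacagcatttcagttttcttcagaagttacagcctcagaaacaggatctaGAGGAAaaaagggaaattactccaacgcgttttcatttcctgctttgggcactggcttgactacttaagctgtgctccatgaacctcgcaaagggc
Clec4e, chr6:123289872-123290021, minus strand: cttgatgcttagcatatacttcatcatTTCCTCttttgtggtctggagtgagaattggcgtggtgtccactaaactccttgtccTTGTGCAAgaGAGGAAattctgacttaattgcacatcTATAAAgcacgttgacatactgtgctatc
The Clec4e window held all but 1 of the 4 motifs, with GAGGAA beginning 123 and 56 bases before the start, TTGCNNAA 66 bases before it and TATAAA 29 bases before it. The Clec7a window held GAGGAA 96 bases before the start. The letters of the 4 motifs were not found in the windows shown for Clec4d and Clec4a3. For Clec4a3 and Clec7a the window of the first of 2 listed starts is shown, and that of the other start held GAGGAA in both, beginning 50 bases before the start for Clec4a3 and 90 for Clec7a. Among 32851 promoter windows of this length, 14.5% held GAGGAA, 5.46% TTGCNNAA, 4.24% TGANTCA and 7.57% TATAAA. A match is only a description of the letters.

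In PMs Clec4d had the highest mean FPKM of the 8 genes and Clec4e was at place 4. Both genes were close to absent from both B cell groups. The MCL gene Clec4d was at 133, 182 and 162 FPKM in PM replicates 1 to 3, at 0.681, 0.621 and 0.106 in CD11b+ B cells and at 0.0937, 0.197 and 0.215 in CD11b- B cells. CD11b+ replicates 1 and 2 lay above all CD11b- libraries, but replicate 3 lay within their range. The mean was 159 ± 24.4 FPKM in PMs (SD, n = 3), 338-fold the mean of 0.470 ± 0.316 in CD11b+ B cells and 943-fold the mean of 0.168 ± 0.0654 in CD11b- B cells. The CD11b- mean was 0.106% of the PM mean for Clec4d and 0.113% for Clec4e. Other genes high in PMs had similar shares, such as Prg4 (0.0963%), Lyz2 (0.0911%) and Csf1r (0.0926%), with Timd4 at 0.0682% and Adgre1 at 0.284%. Whether such low values are RNA of the B cells was not tested.

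The Mincle gene Clec4e was at 34.4, 31.0 and 29.8 FPKM in PMs, at 0.288, 0.20 and 0.0114 in CD11b+ B cells and at 0.0181, 0.0519 and 0.0377 in CD11b- B cells. The value of CD11b+ replicate 3 rests on 2 reads, and those of the CD11b- libraries on 3, 9 and 6 reads. As for Clec4d, CD11b+ replicates 1 and 2 were the highest B cell libraries and replicate 3 was not above the CD11b- libraries. PMs held 190 times the mean of CD11b+ B cells and 882 times that of CD11b- B cells, and the first of these folds was 300 without CD11b+ replicate 1.

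Clec4n, the third gene of this adaptor group, behaved otherwise. It was at 1.34, 0.995 and 0.799 FPKM in CD11b+ B cells (133 reads in all) and at 0.0211, 0.0202 and 0.0220 in CD11b- B cells, where each library had 1 read. All CD11b+ libraries lay above all CD11b- libraries, and the ratio between the groups, scaled to library totals, was 49.0, with an exact 95% interval of 16.4 to 241 that covers counting error only. In PMs Clec4n was at 2.81, 0.916 and 0.174 FPKM, so the CD11b+ libraries lay inside the PM range. The mean of CD11b+ B cells, 1.05 ± 0.275 FPKM, was 0.803 times the PM mean of 1.3 ± 1.36 but 1.92 times that mean without PM replicate 1.

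The Dectin-1 gene Clec7a was at 45.6, 29.8 and 39.4 FPKM in PMs. In CD11b+ B cells it was at 0.478, 2.26 and 0.0323 FPKM, and in CD11b- B cells at 0 in replicate 1, 0.0217 in replicate 2 and 0.0355 in replicate 3. The CD11b+ libraries thus spread over a wide range, with replicate 2 highest and replicate 3 inside the CD11b- range. The mean in CD11b+ B cells, 0.923 ± 1.18 FPKM, was 48.4-fold that in CD11b- B cells. This fold was 13.4 when CD11b+ replicate 2 was left out and 85.0 when CD11b- replicate 3 was. The PM mean of 38.3 ± 7.91 FPKM was 41.5-fold that of CD11b+ B cells, and 150-fold without CD11b+ replicate 2.

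The 3 genes of the DCIR family had higher RNA levels in every CD11b+ library than in any CD11b- library. Clec4a3 was at 10.5, 6.22 and 4.47 FPKM in CD11b+ B cells, at 0.0677, 0.410 and 0.118 in CD11b- B cells and at 50.8, 58.3 and 61.4 in PMs. The 3 groups did not overlap, with CD11b+ B cells between the other two. The CD11b+ mean of 7.05 ± 3.09 FPKM was 35.5-fold the CD11b- mean of 0.199 ± 0.185, or 76.1-fold without CD11b- replicate 2, and 12.4% of the PM mean of 56.8 ± 5.47.

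Clec4a1 was at 1.90, 1.91 and 2.28 FPKM in CD11b+ B cells, at 0.0385, 0.0184 and 0.461 in CD11b- B cells and at 18.8, 18.7 and 15.0 in PMs. The groups did not overlap here either. The CD11b+ libraries differed little among themselves (2.03 ± 0.213 FPKM), whereas 23 of the 26 CD11b- reads were from replicate 3. The fold between the B cell groups was 11.8, and 71.4 without that library. The CD11b+ mean was 11.6% of the PM mean of 17.5 ± 2.15 FPKM, close to the share found for Clec4a3.

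Clec4a2, which encodes the inhibitory DCIR, was at 1.62, 0.953 and 1.24 FPKM in CD11b+ B cells, with 340 reads in all, and had no read in any CD11b- library. Set against the 3 reads that a group count of 0 still allows, the CD11b+ mean of 1.27 ± 0.333 FPKM was at least 124-fold higher, with bounds of 81.1 to 140 when each library was left out in turn. PMs had 1.63, 4.59 and 1.98 FPKM. The CD11b+ mean was 0.465 times the PM mean of 2.73 ± 1.61 FPKM, or 0.703 times without PM replicate 2, and the highest CD11b+ library lay just below the lowest PM library.

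Clec12a, which encodes the inhibitory receptor MICL, was lowest on average in PMs and highest in CD11b+ B cells. It was at 4.63, 5.55 and 3.64 FPKM in CD11b+ B cells, at 3.39, 2.91 and 1.25 in CD11b- B cells and at 0.713, 1.37 and 1.56 in PMs. The CD11b+ libraries lay above all others, and CD11b- replicate 3 lay inside the PM range. The CD11b+ mean of 4.61 ± 0.953 FPKM was 1.83-fold the CD11b- mean of 2.52 ± 1.12 and 3.79-fold the PM mean of 1.22 ± 0.445. Clec12a alone of the 8 had over 200 reads in every CD11b- library.

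**Figure D1:**
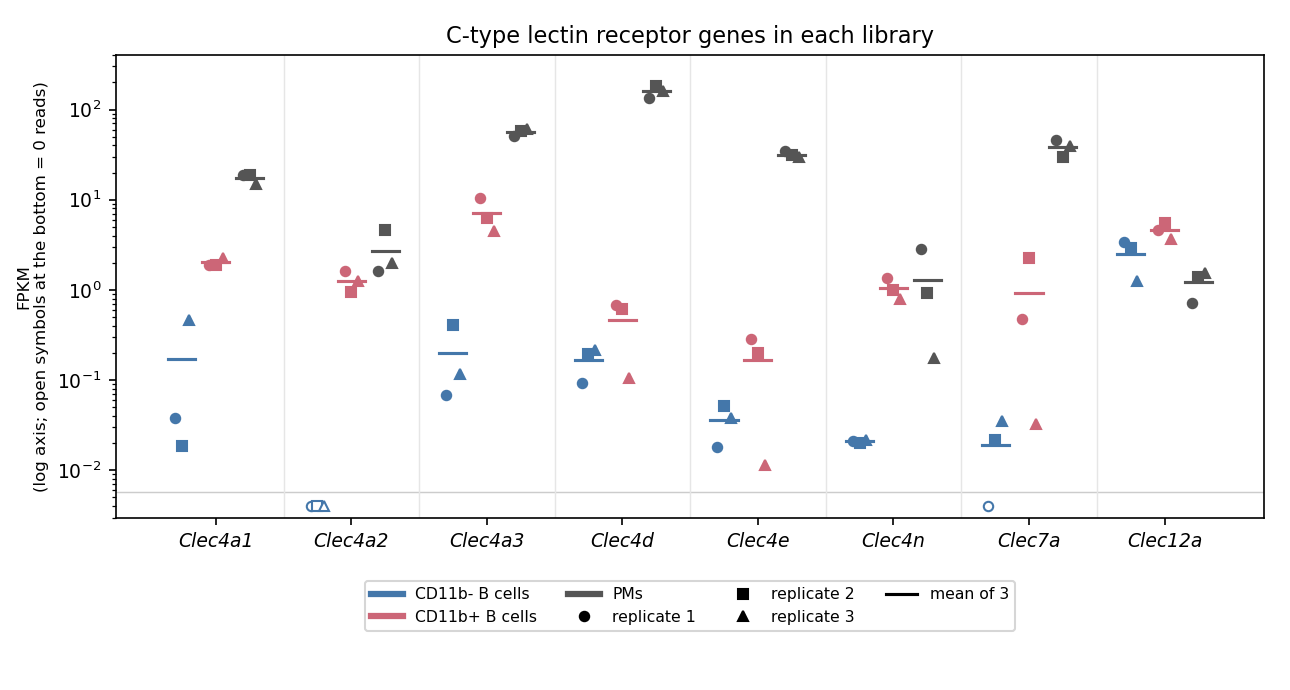
FPKM of the 8 genes (log axis) in each library, with colours for the groups, symbols for the replicates, bars for the mean of 3 libraries and open symbols at the bottom for 0 reads. Clec4d, Clec4e and Clec7a reach 29.8 FPKM or more in every PM library and at most 2.26 FPKM in a B cell library, whereas Clec12a is highest in the CD11b+ B cells.

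The groups therefore differed in which receptor RNA they held and in its amount. The summed FPKM of the 8 genes was 308 ± 19.4 in PMs, 17.6 ± 4.53 in CD11b+ B cells and 3.13 ± 0.863 in CD11b- B cells (SD, n = 3). In PMs Clec4d took 51.3 ± 4.74% of this sum, followed by Clec4a3 with 18.4%, Clec7a with 12.5%, Clec4e with 10.3% and Clec4a1 with 5.69%. Clec4a2, Clec4n and Clec12a shared the rest. Neighbours in this order were separated in their 3 libraries except for Clec7a and Clec4e and for the last 3 genes, whose ranges overlapped.

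In CD11b+ B cells Clec4a3 took 39.2 ± 8.46% and Clec12a 26.8 ± 4.45%, and their FPKM ranges overlapped. Clec4a1 followed with 12.4% and was separated from its neighbours on both sides. Clec4a2 (7.51%), Clec4n (5.98%), Clec7a (4.85%), Clec4d (2.45%) and Clec4e (0.835%) each overlapped the next gene in the order. Clec4d, first in PMs, was thus next to last here. Clec12a took 77.3 ± 17.7% of the small sum in CD11b- B cells, between 58.4% and 93.4%, and no other gene had a mean above 0.2 FPKM.

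**Figure D2:**
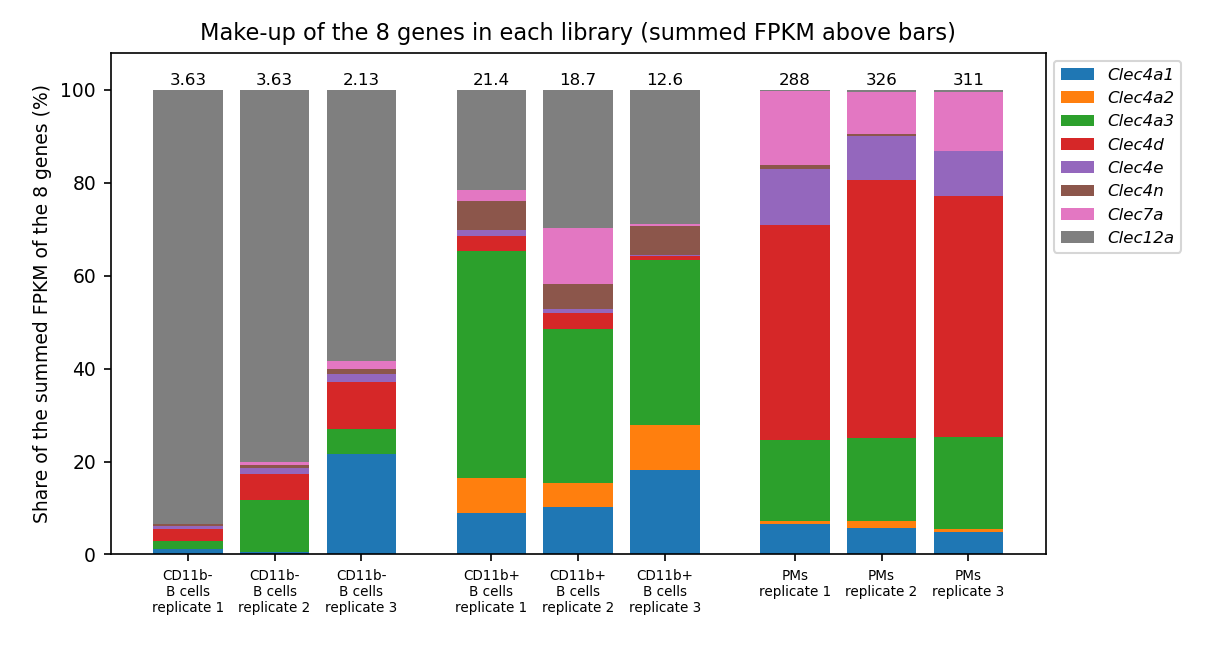
Share of each gene in the summed FPKM of the 8 genes (percent, stacked bars) for each library, with the summed FPKM above each bar. Clec4d takes 46.3 to 55.7% of the sum in PMs, Clec4a3 33.2 to 48.9% in CD11b+ B cells and Clec12a 58.4 to 93.4% in CD11b- B cells.

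Groups were compared on log2(FPKM + 1) with limma across all genes, and a gene was called at a Benjamini-Hochberg adjusted p under 0.05. Adding 1 makes differences of low genes smaller than their folds. All 8 genes passed the minimum mean of 0.05 FPKM in each comparison. For CD11b+ against CD11b- B cells, 1 of the 8, Clec4a3, was called higher and none lower, where 0.0689% of the 21778 genes tested were called higher and 0% lower. Clec4a3 differed by 2.69 (SE 0.32, limma adjusted p = 0.0497), and its adjusted p ranged from 0.132 to 0.208 when CD11b+ replicate 1 or 2 or a CD11b- library was left out. The call was also lost without a filter (limma adjusted p = 0.253) and with the replicate number of the titles (0.0962) or of the descriptions (0.656) as a block. The description block leaves little to estimate the spread from and called no gene at all, so it cannot decide on Clec4a3. For 5 of the 8 no CD11b+ library overlapped the CD11b- libraries and all were higher, which was so for 8.63% of genes tested. An unadjusted p under 0.05 was also found for 5 of the 8, all higher, where 4.65% of genes were higher and 3.04% lower at that p. The other 4 of these were Clec4a1 (1.39 ± 0.23, log2 difference ± SE), Clec4a2 (1.17 ± 0.18), Clec4n (0.99 ± 0.17) and Clec12a (0.72 ± 0.31). Clec7a differed by 0.74 ± 0.37, Clec4d by 0.31 ± 0.19 and Clec4e by 0.16 ± 0.12, with overlapping libraries. All 8 differences were above 0, with a median of 0.87 against 0.03 over all genes tested. This median lies between Clec4n and Clec7a, so the value of Clec4a2, which had no CD11b- read, does not set it. Count models on the whole reads called more of the 8. The edgeR quasi-likelihood test called Clec4a2 and Clec4a3 higher (0.269% of its genes), and DESeq2 called Clec4a1, Clec4a2, Clec4a3, Clec4n and Clec7a higher (1.89%, with 0.369% lower and none of the 8 among them). Without a filter on low genes edgeR also called 5 of the 8 higher, where 1.11% of genes were.

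For CD11b+ B cells against PMs, 5 of the 8 were called lower and 1 higher, where 8.78% of the 22102 genes tested were called lower and 21.5% higher. Over all genes 4760 were higher and 1940 lower, a split that was 2769 to 2660 with median-ratio scaling. The log2 differences were -6.78 ± 0.24 for Clec4d, -4.81 ± 0.23 for Clec4e, -4.50 ± 0.42 for Clec7a, -2.91 ± 0.28 for Clec4a3 and -2.61 ± 0.22 for Clec4a1. Clec12a was higher in CD11b+ B cells by 1.35 ± 0.31 (limma adjusted p = 0.0135), a call that was lost with median-ratio scaling (0.97, limma adjusted p = 0.0707). The difference was -0.65 ± 0.37 for Clec4a2 and -0.01 ± 0.44 for Clec4n, neither of them called by limma. DESeq2 called Clec4a2 lower (DESeq2 adjusted p = 0.0204), where it called 18.8% of its genes lower. The sign for Clec4n turned with several settings and was 0.44 without PM replicate 1. The median over the 8 genes was -2.76 against 0.25 over all genes.

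CD11b- B cells were compared with the same PM libraries, so the values stand beside the former and are not independent of them. Of the 8 genes 6 were called lower and none higher, where 11% of the 20985 genes tested were called lower and 25.8% higher. These were 5404 higher and 2306 lower genes, or 3333 and 3153 with median-ratio scaling. The differences were -7.09 ± 0.19 for Clec4d, -5.60 ± 0.21 for Clec4a3, -5.25 ± 0.23 for Clec7a, -4.98 ± 0.21 for Clec4e, -3.99 ± 0.26 for Clec4a1 and -1.82 ± 0.33 for Clec4a2. Clec4n differed by -1.0 ± 0.40 and was not called by limma, although all CD11b- libraries lay below all PM libraries. DESeq2 called it lower (-6.42, DESeq2 adjusted p = 6.57e-05), as it did 22.4% of its genes. Without PM replicate 3 the call was also made by limma (-1.40, limma adjusted p = 0.0192). Clec12a differed by 0.63 ± 0.35 and was not called by limma, edgeR or DESeq2. With median-ratio scaling the median difference of all genes moved from 0.25 to 0.11 for CD11b+ B cells against PMs and from 0.24 to 0.06 for CD11b- B cells against PMs, and apart from Clec12a no call of the 8 genes was lost.

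**Figure D3:**
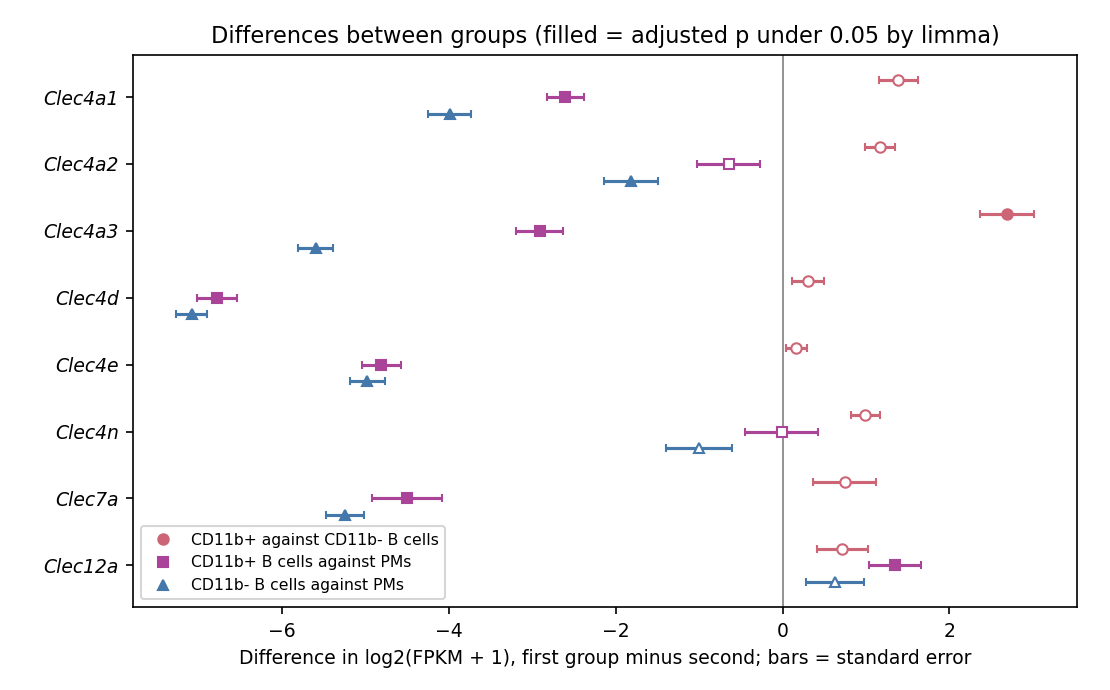
Differences in log2(FPKM + 1) between groups for the 8 genes, first group minus second, with bars for the standard error and filled symbols where the limma adjusted p is under 0.05. Clec4d, Clec4e and Clec7a lie at -4.50 or below in both comparisons with PMs, and the values for CD11b+ against CD11b- B cells run from 0.16 for Clec4e to 2.69 for Clec4a3.

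The adaptors of these receptors were examined next. Fcer1g, the chain that Mincle, MCL and Dectin-2 need, was at 40.6, 53.9 and 35.5 FPKM in CD11b+ B cells, at 1.82, 2.03 and 1.28 in CD11b- B cells and at 1293, 1925 and 1280 in PMs. The groups did not overlap, and CD11b+ B cells held 25.3 times the CD11b- mean and 2.89% of the PM mean. Fcer1g was the only gene called of the 3 adaptors between the B cell groups, with a log2 difference of 4.02 (SE 0.21, limma adjusted p = 0.00115). With the number of the sample descriptions as a block the difference was 3.94 and was not called (limma adjusted p = 0.656). Some libraries share that number with no library of the other group, which leaves little to estimate the spread from. That block called no gene at all, so the lost call cannot decide on Fcer1g. Tyrobp, which encodes the related chain DAP12, was at 74.1, 94.1 and 76.3 FPKM in CD11b+ and 38.2, 57.3 and 55.4 in CD11b- B cells, and was not called (0.70 ± 0.19, limma adjusted p = 0.408). Hcst, which encodes DAP10, was at 22.4, 14.9 and 41.6 FPKM in CD11b+ and 8.22, 17.6 and 15.3 in CD11b- B cells, and these overlapped. All 3 adaptors were lower in both B cell groups than in PMs.

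Most kinases downstream were at higher levels in B cells than in PMs. As background, the B cell receptor uses many of the same enzymes. None of 16 kinase and scaffold genes was called between the B cell groups by limma (2 had an unadjusted p under 0.05, both lower, and 0 were called by edgeR), and DESeq2 called 1, lower. For 7 of the 16 all CD11b+ libraries lay below all CD11b- libraries and for 0 above, where 6.32% of genes tested lay below. Against PMs, CD11b+ B cells had 10 of the 16 higher and 2 lower, where 21.5% of all genes tested were called higher and 8.78% lower. CD11b- B cells had 12 higher and 2 lower, where 25.8% were called higher and 11% lower. Over the 6 lists of receptor partners and relatives the split against PMs was 30 higher to 23 lower for CD11b+ B cells, or 22 to 24 with median-ratio scaling, and 34 to 25 for CD11b- B cells, or 24 to 27. Syk itself was at 104, 116 and 114 FPKM in CD11b+ B cells, at 126, 120 and 156 in CD11b- B cells and at 43.4, 23.1 and 31.3 in PMs, a log2 difference of 1.79 ± 0.24 for CD11b+ B cells against PMs (limma adjusted p = 0.00107). The adaptor gene Blnk, which links Syk to its targets in B cells, was at 103 to 112 FPKM in CD11b+ B cells and 5.03 to 9.15 in PMs. Vav2 (1.82 ± 0.24) and Vav1 (1.62 ± 0.31), which encode guanine nucleotide exchange factors, were called higher as well. Vav3 (-1.64 ± 0.37) and the Src-family kinase gene Fgr (-1.43 ± 0.24) were the 2 called lower.

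Of 16 genes of the CARD9 module, none was called between the B cell groups by limma (3 had an unadjusted p under 0.05, all lower, and edgeR called 0), and DESeq2 called Rubcn lower. The libraries lay apart for 6 of the 16, with CD11b+ B cells lower in 5 and higher in 1. CD11b+ B cells had 9 higher and 1 lower than PMs, where 21.5% of all genes tested were called higher and 8.78% lower. CD11b- B cells had 12 higher and 1 lower, where 25.8% were called higher and 11% lower. The 1 lower gene was Card9 itself, the adaptor that carries signals of Syk-coupled lectin receptors. Card9 was at 17.4, 36.3 and 11.7 FPKM in PMs, at 0, 0.333 and 0.136 in CD11b+ B cells and at 0.431, 0.05 and 0.0680 in CD11b- B cells. The B cell groups overlapped, and the log2 difference of CD11b+ B cells from PMs was -4.16 ± 0.41 (limma adjusted p = 0.0002). Several partners were called higher in B cells, whereas Trim62, a ubiquitin ligase for CARD9, was below PMs without a limma call (-0.84 ± 0.35 for CD11b+ and -1.03 ± 0.34 for CD11b- B cells). Malt1 was at 10.1 to 11.3 FPKM in CD11b+ B cells and 1.18 to 1.5 in PMs (2.37 ± 0.24), and Bcl10 at 21.6 to 25.6 and 9.88 to 11.6 (1.06 ± 0.18). Rubcn, which encodes Rubicon, a CARD9 partner that damps its signals, was at 37.7 to 44.1 FPKM in CD11b+ B cells and 2.69 to 4.11 in PMs, and the NF-kappaB subunit gene Rel at 19.3 to 24.9 and 5.01 to 5.39.

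DCIR and MICL recruit the products of Ptpn6 and Ptpn11, and Inpp5d was listed with them as a further inhibitory phosphatase. None of the 3 genes was called between the B cell groups by limma, edgeR or DESeq2, although Inpp5d had an unadjusted p under 0.05. The CD11b+ libraries lay below the CD11b- libraries for both Inpp5d and Ptpn6 and above them for Ptpn11. Of the 3 genes, 2 were called higher by limma in each B cell group than in PMs. Over all genes tested, 21.5% were called higher for CD11b+ and 25.8% for CD11b- B cells. Ptpn6 was at 628, 716 and 460 FPKM in CD11b+ B cells, at 888, 829 and 763 in CD11b- B cells and at 144, 171 and 151 in PMs. Inpp5d, which encodes the lipid phosphatase SHIP1, was at 33.8 to 37.6, 43.7 to 50.5 and 14.7 to 24.6 FPKM in the same order. Ptpn11 was at 7.16 to 7.22 FPKM in CD11b+ B cells and 6.07 to 6.47 in the CD11b- libraries, and was not called by limma in any comparison. Both count models called it lower than in PMs in CD11b+ B cells (edgeR adjusted p = 0.0424, DESeq2 0.0242) and in CD11b- B cells (edgeR adjusted p = 0.0115, DESeq2 0.000932).

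**Figure D4:**
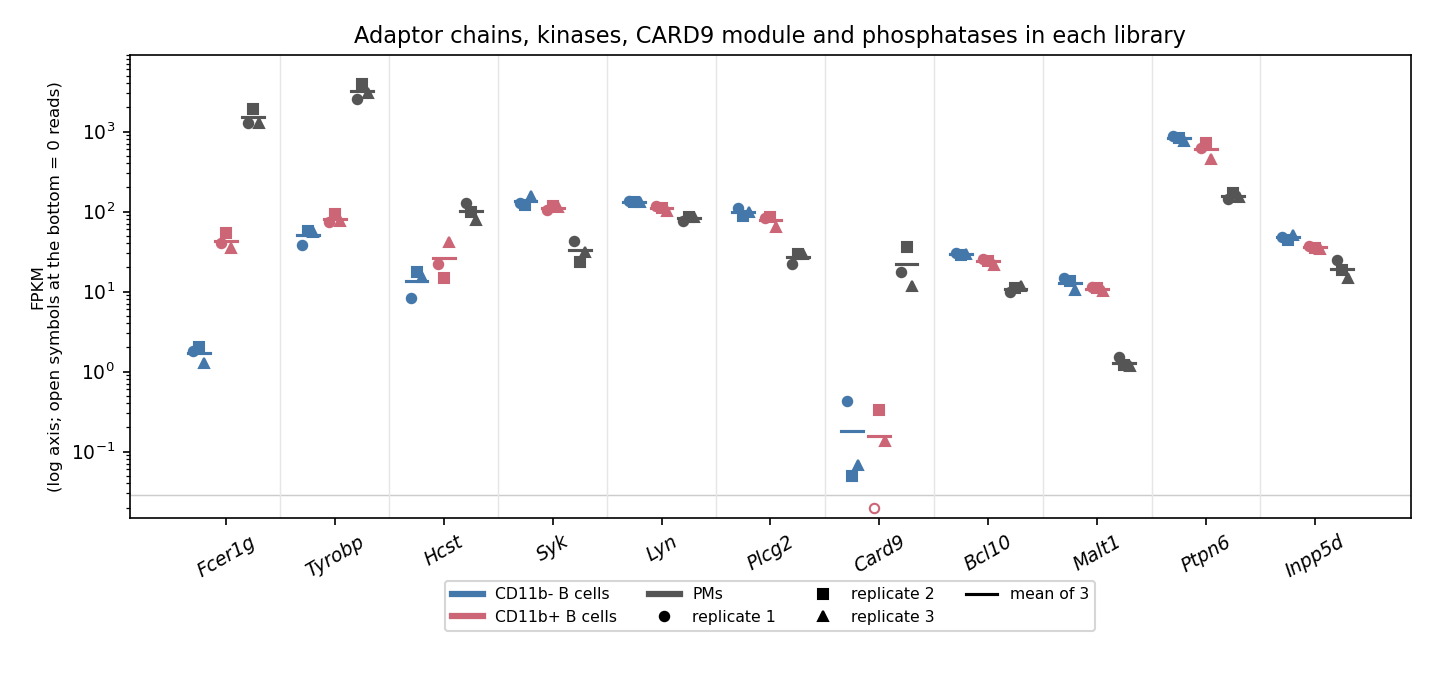
FPKM (log axis) of adaptor, kinase, CARD9 module and phosphatase genes in each library, drawn as for the receptors. Fcer1g separates the 3 groups, Card9 is at 11.7 FPKM or more in PMs and at most 0.431 FPKM in B cells, and Syk, Malt1 and Ptpn6 are higher in B cells than in PMs.

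Of 14 cytokine and early response genes that lectin receptors can switch on, 7 passed the minimum between the B cell groups and none was called (2 had an unadjusted p under 0.05, both higher, and edgeR called 0), while DESeq2 called Il1b higher. Il10 was at 2.57, 1.57 and 0.715 FPKM in CD11b+ B cells and at 0.549 in 1 of the 3 CD11b- libraries and 0 in the others (1.12 ± 0.32, limma adjusted p = 0.460). Tnf was at 10.1 to 11.1 FPKM in CD11b+ and 3.65 to 8.69 in CD11b- B cells (0.61 ± 0.29, limma adjusted p = 0.676). Il1b was at 0.411 to 0.601 FPKM in CD11b+ B cells and 0 in CD11b- B cells (0.57 ± 0.13, limma adjusted p = 0.286). Against PMs, 2 of the 9 tested were called higher in CD11b+ B cells, Tnf (2.42 ± 0.42) and the transcription factor gene Egr3 (2.07 ± 0.29). This share is near that of all genes tested, of which 21.5% were called higher and 8.78% lower. The neutrophil-attracting chemokine genes Cxcl2 (-3.95 ± 0.33) and Cxcl1 (-3.03 ± 0.32) were called lower, with 10.7 to 22.5 and 6.01 to 10.1 FPKM in PMs and at most 0.0739 FPKM in a B cell library.

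Among 45 other lectin receptor genes, 22 were tested between the B cell groups and none was called by limma (4 had an unadjusted p under 0.05, 3 of them higher, and edgeR called 0), while DESeq2 called Clec5a, a DAP12-coupled receptor of myeloid cells, higher. Their median difference was 0.02. Clec5a was at 0.559, 0.597 and 0.0222 FPKM in CD11b+ B cells and at most 1 read, 0.00746 FPKM, in a CD11b- library, and like Clec4d and Clec4e it was lowest in CD11b+ replicate 3. Against PMs, 7 of 31 were called higher in CD11b+ B cells, a share near the 21.5% of all genes tested. Of the 31, 15 were called lower, where 8.78% of all genes were. The higher ones were led by lectins of B cells, Fcer2a (the low-affinity IgE receptor CD23, 6.69 ± 0.23) and Cd72 (a coreceptor of the B cell receptor, 6.58 ± 0.23). The lower ones were led by Selp (P-selectin, -6.66 ± 0.22), Cd209a (-5.49 ± 0.25), Clec10a (a galactose-binding receptor of macrophages, -4.58 ± 0.26) and Clec4b1 (-4.53 ± 0.36).

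Along the chromosome, receptors next to each other differed widely in level. Between the members of the first cluster lie 7 other annotated genes, and between those of the second 5. In the first cluster Clec4a4, an inhibitory relative of Clec4a2, had no read in B cells and 2 in PMs, and Clec4b2 had 2 reads in CD11b+ B cells and none elsewhere. Clec4b1, which lies between Clec4a3 and Clec4a2 and encodes another receptor of the adaptor group, was at 43.9, 39.2 and 33.1 FPKM in PMs, at 0.0869, 1.85 and 0.615 in CD11b+ B cells and at 0.0382, 0.0366 and 0 in CD11b- B cells. Its CD11b+ libraries lay above all CD11b- libraries, with replicate 2 highest. In the second cluster Clec12b had no read in any library, Clec9a reached 0.509 FPKM in a PM library and at most 0.0172 FPKM in a B cell library, and Clec1b was at 1.76 to 3.09 FPKM in PMs and at most 0.0749 in B cells. Clec1a had at most 3 reads in a group.

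**Figure D5:**
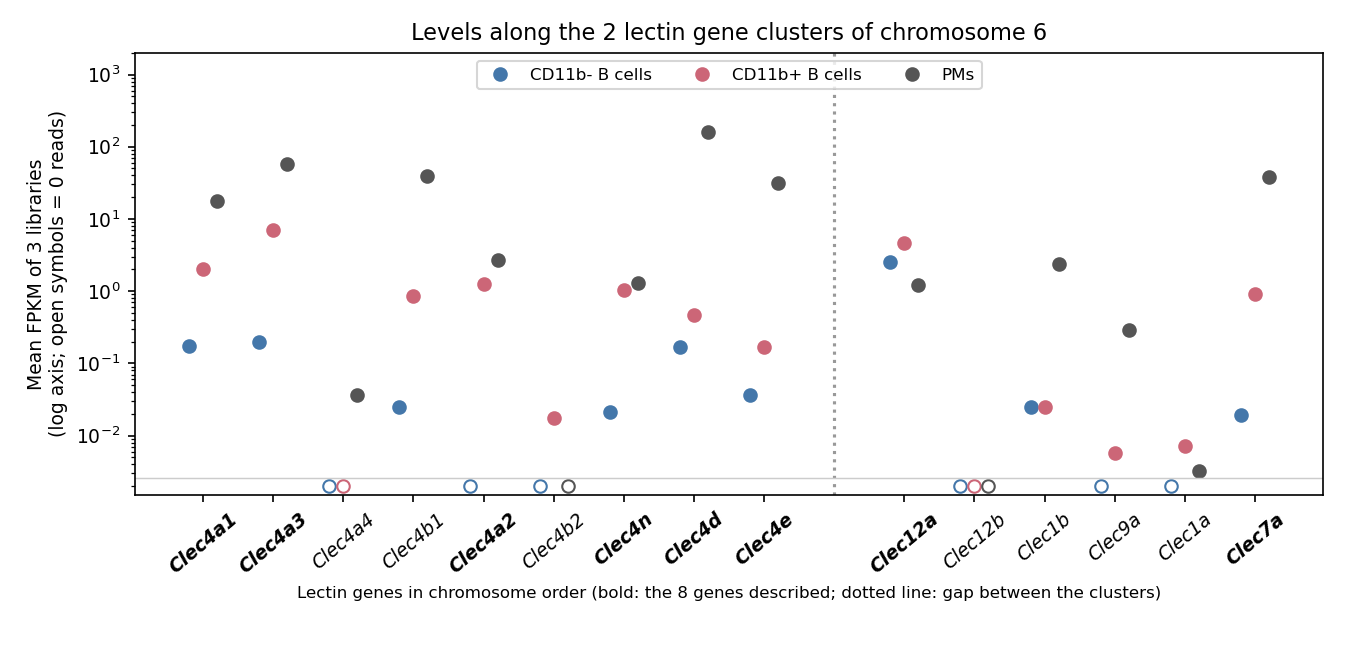
Mean FPKM of 3 libraries (log axis) for the lectin genes of the 2 clusters in chromosome order, with the 8 genes in bold, a dotted line at the gap between the clusters and open symbols at the bottom for 0 reads. Levels in PMs run from 0 reads for Clec4b2 and Clec12b to 159 FPKM for Clec4d, and Clec12a is the only gene above 1 FPKM in CD11b- B cells.

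The genes with the most similar pattern were looked up by Pearson's r of log2(FPKM + 1), as a description over libraries that differ in tissue, treatment and depth. Nearly all of the nearest genes, here and within the B cell libraries, were others with Spearman's correlation, so the names depend on the measure. Over the 9 libraries, among 13939 genes, Clec4a3 was most like Evi2a (r = 0.994), Hmox1 (0.993) and Fcer1g (0.991), and Clec4a1 most like S100a6 (0.995), Mt1 (0.993) and Etfb (0.989). For Clec4d and Clec4e the ranking says little, since 284 and 311 genes had an r of at least 0.99, led by F10, Msr1 and Emilin2 for Clec4d and by C4b, Nupr1 and Timd4 for Clec4e. Clec7a was led by Sqor (0.998), Lcp2 (0.996) and Pilra (0.995), Clec4a2 by Hint1 (0.981), Manf (0.965) and Abcb1b (0.961), and Clec4n by Gm9385 (0.951), Gm10051 (0.946) and Cnbd2 (0.928). Clec12a stood apart, with the cell cycle genes Gmnn (0.981), Cks1b (0.972) and Ncapg2 (0.972) as its nearest genes. Cks1b, a subunit of cyclin-dependent kinases, was at 91.2, 90.1 and 60.7 FPKM in CD11b+ B cells, at 49.4, 45.3 and 19.7 in CD11b- B cells and at 6.66, 13.0 and 11.6 in PMs.

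Within the 6 B cell libraries, among 12608 genes, Clec7a was most like Chil1 (r = 0.999), Stfa1 (0.998) and Stfa2l1 (0.995). Stfa1, a stefin gene, was at 1.10, 5.97 and 0 FPKM in the CD11b+ libraries and had no read in CD11b- B cells. Clec4a3 and Clec4n were both nearest to Cxcr3 (0.995 and 0.996), a chemokine receptor gene at 15.7, 9.42 and 5.75 FPKM in CD11b+ and 0.288 to 0.596 in CD11b- B cells, and both had Elane, a protease gene of neutrophil precursors, among their 3 (0.99 and 0.993). Clec4a1 was nearest to S100a6 (0.999), the macrophage scavenger receptor gene Marco (0.994) and the complement gene C1qb (0.992). Clec4a2 was nearest to Cd300c2 (0.998), Gm29486 (0.996) and Sdf2l1 (0.996), Clec4d to Gstcd, Cenpa and Tmem97 (0.991 to 0.998), Clec4e to Ly6i, Lamtor5 and Mpc1-ps (0.99 to 0.994), and Clec12a to Dut, H2ac8 and Igkv8-24 (0.991 to 0.994).

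Myeloid marker RNA moved with the receptors between the B cell groups. The summed FPKM of 16 neutrophil markers was 675, 1611 and 220 in CD11b+ replicates 1 to 3 and 2.07 to 3.31 in CD11b- B cells, although the BM had been depleted of Gr-1+ cells. Of the 16, limma called 3 higher (S100a8, S100a9 and Retnlg), edgeR 10 and DESeq2 15. All 16 had an unadjusted p under 0.05 and were higher, and 14 had libraries that did not overlap, and none was at 0 in all CD11b- libraries. The sum of 16 monocyte and macrophage markers was 341, 315 and 162 FPKM in CD11b+ and 67.5 to 73.5 in CD11b- B cells, with 0 called by limma (12 had an unadjusted p under 0.05, all higher, and DESeq2 called 11 and edgeR 1, Csf1r), 13 not overlapping and Cd300e at 0 in CD11b- B cells. Lyz2 was the largest single part of the latter sum, at 261, 240 and 65.4 FPKM in CD11b+ replicates 1 to 3 and 30.1 to 42.2 in CD11b- B cells. The other 15 markers summed to 80.0, 74.4 and 96.8 FPKM in CD11b+ replicates 1 to 3 and to 31.4 to 41.5 in the CD11b- libraries. CD11b+ replicate 3 was lowest in the neutrophil sum and in the sum with Lyz2. It was highest in the monocyte and macrophage sum without Lyz2, but not once Ly6c2 was left out as well. Ly6c2 was at 28.6, 26.4 and 46.1 FPKM in CD11b+ replicates 1 to 3 and at 10.1 to 19.2 in CD11b- B cells. Csf1r (3.56, 3.19 and 1.36) was lowest in replicate 3, whereas Mpeg1 (9.79, 8.49 and 12.9) was highest there. Of the receptors, replicate 3 was the lowest in Clec4a3, Clec4d, Clec4e, Clec4n, Clec7a and Clec12a. CD11b+ replicate 2, highest in the neutrophil sum, was the highest in Clec7a and Clec12a. Clec4a2, Clec4a3, Clec4d, Clec4e and Clec4n were highest in replicate 1. Clec4a1 went the other way and was highest in replicate 3, and Clec4a2 was lowest in replicate 2. The part of such cells in the receptor values was not tested. The other marker lists differed in how far they were apart. In CD11b+ and CD11b- B cells the sums were 66.8 to 94.8 and 66.2 to 82.3 FPKM for resident peritoneal macrophage markers, mostly Icam2 (8.43 to 27.6 and 3.28 to 5.20 without it). In the same order they were 39.3 to 44.8 and 40.6 to 53.1 for dendritic cells, mostly Wdfy4, and 2.08 to 3.96 and 0 to 2.54 for T and NK cells. They were 28.2 to 39.3 and 1.40 to 21.4 for erythroid cells, and 1.57 to 2.79 and 0.0206 to 0.107 for basophils and mast cells. For megakaryocytes and platelets they were 4.67 to 6.75 and 2.50 to 4.71, mostly Pf4 (0.590 to 1.83 and 0.0441 to 0.439 without it). Pf4 was at 2257 to 3290 FPKM in PMs. Among the dendritic cell markers, Batf3 was at 0.0426, 0.526 and 0.320 FPKM in CD11b+ B cells and at most 0.0188 in a CD11b- library. Itgax was at 0.0638, 0.231 and 0.532 FPKM against 0.0716 in CD11b- replicate 2 and 0 in the others, and the mean of Flt3 was 2.56-fold higher. Of the 7 resident macrophage markers tested, 5 had CD11b+ libraries above all CD11b- libraries and 0 below, namely Lrg1, Vsig4, Cd5l, Timd4 and Prg4. Lrg1 was at 8.54, 21.4 and 1.35 FPKM in CD11b+ B cells and at most 0.665 in a CD11b- library, and Vsig4 at 0.252, 0.180 and 0.822 and at most 0.154. Limma and edgeR called 0 of these markers, of which 6 had an unadjusted p under 0.05, and DESeq2 called 4 (Cd5l, Lrg1, Cd4 and Nkg7).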

How the data were processed

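RNA of 9 sorted cell samples was made into libraries with SMART-seq HT and sequenced as paired reads on a DNBSEQ instrument by the authors. The study's methods give STAR with GRCm38 and featureCounts. The submitters' processing notes list Trim Galore 0.4.4, Trimmomatic 0.36, cutadapt 1.16, STAR 2.7.2b, featureCounts 1.6.1 and DESeq2 1.20.0, and both GRCm38 and GRCm39. The strand setting was not stated. The authors deposited FPKM for 55322 genes, made from reads per gene, exon length and library total. The authors also deposited a signal table of 11063 genes, chosen on a p-value whose test is unnamed, in which counts were divided by a size factor per library. All 8 receptor genes were in it, but it served only to check recovered reads. FPKM gave whole reads (100% of values, within 0.05 reads) with 18014658 to 35251215 reads a library. The second table's positions are offset from GENCODE M21, so positions were taken from GENCODE M21 by gene identifier, and promoters from RefSeq (GRCm38.p6).

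Groups were compared with limma 3.58.1 (R 4.3.3, eBayes with trend, two-sided, Benjamini-Hochberg adjustment) on log2(FPKM + 1) over the 6 libraries of a comparison, for genes whose FPKM averaged at least 0.05. Alternatives were a pseudocount of 0.1, no filter, a mean FPKM of at least 1, all 9 libraries in one model, a replicate block, median-ratio scaling, each library left out, and edgeR 4.0.16 (quasi-likelihood) and DESeq2 1.42.0 (at least 10 reads) on whole reads. Intervals at 95% cover counting error only. Named genes were the 8 receptors, called genes of each list (up to 4 a direction by size of difference, otherwise up to 3), and for each receptor the 3 genes with the highest Pearson r, with a mean FPKM of at least 0.5 over the libraries and at least 1 in a group. Other genes were named where a count was small. Clec4b1 and other neighbours on the chromosome were named for their position. The members and lists were chosen with earlier results of these data known. Protein features were not analysed here, and the values of 1 kinase gene are not reported here. Scripts used Python 3.11.15 with pandas 2.3.3, numpy 2.4.6, scipy 1.17.1 and matplotlib 3.10.9.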

Additional observations from a re-analysis of the deposited data

How the results depend on the processing

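Between CD11b+ and CD11b- B cells limma called 15 of all genes and 1 of the 8 receptors. The count of all genes was 37 (34 higher and 3 lower) with a pseudocount of 0.1, 2 without a filter, 31 at a mean FPKM of at least 1, 36 (31 higher and 5 lower) with all 9 libraries, 42 with edgeR, 571 (416 higher and 155 lower) with edgeR without a filter and 392 (328 higher and 64 lower) with DESeq2. Leaving out 1 library gave 3 (CD11b- replicate 1) to 40 (CD11b+ replicate 3), with 4 without CD11b- replicate 2, 7 without CD11b- replicate 3 and 5 without CD11b+ replicate 1 or replicate 2. Of the 8 receptors, 0 were called without a filter (Clec4a3, limma adjusted p = 0.253), 2 with edgeR and 5 with edgeR without a filter or DESeq2, and 0 to 1 with a library left out, 1 only without CD11b+ replicate 3. Of the receptors' partners and relatives 1 was called, 7 (4 higher and 3 lower) with edgeR without a filter and 5 (3 higher and 2 lower) with DESeq2. With the title's number as a replicate block 16 genes were called and 0 receptors (Clec4a3, limma adjusted p = 0.0962). With the description's other number as a replicate block 0 genes, 0 partners and 0 receptors were called (0.656 for Clec4a3 and for Fcer1g). Some libraries share this number with no library of the other group. This leaves little to estimate the spread from, so that block could call hardly any gene. Deviations of samples with the same title number correlated at 0.203, -0.011 and 0.167 between the B cell groups. The number was not taken as a pairing, since 1 pair was not above 0.1. The other 2 pairs also share the description's number, and whether they share an animal or day is not stated. Against PMs the block moved the calls from 6700 to 5854 for CD11b+ and from 7710 to 7125 for CD11b- B cells, with 6 receptors called in each as before. The description's number could not be used there. The difference of Clec4n between CD11b+ B cells and PMs turned to 0.27 with a pseudocount of 0.1, and lay between -0.41 (without PM replicate 3) and 0.44 (without PM replicate 1), with 0.0038 without CD11b+ replicate 2 and 0.08 without CD11b+ replicate 3. The call of Clec12a against PMs was lost with median-ratio scaling, with edgeR without a filter (adjusted p = 0.0551) and without CD11b+ replicate 1 (0.0596) or 2 (0.0683). Summed FPKM of the 8 genes in PMs was 403 with median-ratio scaling against 308. Over the single-gene alternatives 329 kept direction and side of the threshold, 14 newly passed it, 12 no longer passed it and 4 turned sign. With Spearman's correlation 3 of the 48 most similar genes were shared. Where counts moved, the cause was not tested. Clec4e, Clec4n and Clec7a rest on few reads in CD11b- B cells, so differences among those libraries were not detectable at this depth.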
